A study of Mus musculus with 15 samples.

Results

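The heart takes up, stores and releases iron through a small set of proteins, and the mRNAs of 8 of them were followed here in mouse hearts with chronic kidney disease (CKD) and renalase (RNLS) overexpression. The genes were listed by name for their roles, with earlier results of these data known: Tfrc and Slc11a2 for uptake, Fth1 and Ftl1 for storage, Slc40a1 for export, Hamp for the control of export, and Fbxl5 and Ireb2 for the sensing of iron. All 8 were among the 17447 genes of the count table, and all 8 passed the filter on low counts that left 13021 genes to test. Hamp passed it with counts between 0 and 150, while the lowest count of the other members in any library was 186. A further list of 96 iron genes, including the 8, was written by role. The table held 95 of them, all except Ftmt, and 85 were tested.

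RNA-seq was done on hearts of male mice on the C57BL/6J background, 3 libraries in each of 5 groups, 18 weeks after surgery. WTSHAM were wild-type mice with a sham operation. WTCKD were wild-type mice with subtotal nephrectomy that received an empty vector in week 2, and WTCKD + RNLS received AAV9-cTnT-Rnls instead, a virus in which a cardiomyocyte promoter drives RNLS. KOCKD and KOCKD + RNLS were RNLS knockout mice with the same nephrectomy and the same vector or virus. The paper names no vector for WTSHAM. In WTCKD against WTSHAM, called CKD against sham or "with CKD" below, nephrectomy and empty vector therefore cannot be told apart. The operation was done in mice 6 to 8 weeks old, the knockout was made with a TALEN, and no sham-operated knockout was sequenced, so the CKD response in knockout hearts was not measured. The 3 libraries of a group came from separate mice, out of larger groups kept for the other measurements of the study.

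Cells import iron as transferrin bound to its receptor, release it inside the cell through a divalent metal transporter, keep the surplus inside ferritin shells and export it through ferroportin, which hepcidin removes from the membrane. The balance is set after transcription by the iron regulatory proteins IRP1 and IRP2. When iron is short they bind iron-responsive elements, short hairpins in the untranslated regions of mRNAs. Binding in the 5′ region blocks translation, and binding in the 3′ region protects the mRNA from decay. The mRNA level of ferritin or ferroportin is therefore only part of what decides the amount of protein, whereas the Tfrc mRNA level itself is a known target of this control. In the heart both lack of iron and excess of free iron are known to harm the muscle.

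Iron-responsive elements were searched for by a strict pattern in the sense strand of GENCODE M1 coding transcripts on NCBIM37 (mm9), the reference used here. A match needed the loop bases CAGTG followed by any base but G, 5 of 5 pairs in the upper stem, a bulged C below it and at least 4 of 5 pairs in the lower stem, G with T counted as a pair. Of the 8 members 4 had a match, and of 22611 genes with a coding transcript 23 had one, or 0.102%. In the sequences below, 5′ to 3′, the capitals mark the bulged C and the loop of 6 bases. Tfrc held 4 matches in its 3′ untranslated region, and Fth1, Ftl1 and Slc40a1 held 1 each in the 5′ untranslated region.
Tfrc element 1: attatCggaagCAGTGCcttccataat
Tfrc element 2: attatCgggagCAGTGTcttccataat
Tfrc element 3: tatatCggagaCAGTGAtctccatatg
Tfrc element 4: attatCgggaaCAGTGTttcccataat
Fth1: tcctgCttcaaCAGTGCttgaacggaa
Ftl1: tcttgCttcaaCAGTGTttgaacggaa
Slc40a1: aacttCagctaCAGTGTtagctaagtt

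The 4 Tfrc elements lay on the plus strand at chr16:32631306-32631332, chr16:32631685-32631711, chr16:32631750-32631776 and chr16:32631797-32631823. The Fth1 element was at chr19:10057223-10057249 on the plus strand, the Ftl1 element at chr7:52715150-52715176 on the minus strand and the Slc40a1 element at chr1:45982311-45982337 on the minus strand. The elements of the 2 ferritin chains shared 25 of 27 bases. Slc11a2, Hamp, Fbxl5 and Ireb2 had no match in these transcripts, which says only that these letters and pairs were not found there. Epas1, named below among the mRNAs known to carry an element, had no match either. The pattern can thus miss elements, and a gene without a match may still be under this control. Alas2, another of the iron genes, also matched. The genes themselves span chr16:32609006-32632880 (Tfrc), chr19:10057193-10059582 (Fth1), chr7:52713314-52715254 (Ftl1), chr1:45964915-45982439 (Slc40a1), chr7:31727390-31729036 (Hamp), chr15:100218329-100255503 (Slc11a2), chr5:44135855-44212878 (Fbxl5) and chr9:54711562-54760341 (Ireb2). Tfrc, Fth1 and Ireb2 are on the plus strand and the others on the minus strand, and the build of the count table itself is given differently by the sources used here.

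The libraries held between 10480788 and 13424078 counted reads, with a median of 12011453, and the biological coefficient of variation over all tested genes was 13.2%. The tissue was heart in every library: the summed level of 8 cardiomyocyte markers lay between 100196 and 128053 counts scaled to library size (CPM). Rnls had no row in the table, so the genotype and the overexpression rest on the labels. The summed level of 8 atrial markers ran from 108 to 2793 CPM, which is a wide range within groups. The hepatocyte marker Fgb was at 0 in all 15 libraries, and Alb had at most 7 counts. CPM below are scaled by edgeR's TMM factors, and FPKM, which also divide by gene length, are given where genes are compared with each other.

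Per length, the ferritin heavy chain was by far the most abundant of the 8 mRNAs. Over all 15 libraries the mean level was 2542 FPKM for Fth1 and 337 FPKM for Ftl1. The next were Tfrc with 12.6 FPKM and Fbxl5 with 9.69 FPKM, followed by Slc40a1 with 6.98, Slc11a2 with 5.58, Hamp with 5.54 and Ireb2 with 5.32 FPKM. The ratio of Fth1 to Ftl1 in FPKM lay between 5.33 and 9.09 in single libraries, and its group means ran from 6.99 ± 1.44 in WTSHAM to 8.47 ± 1.02 in WTCKD + RNLS (SD, n = 3). The members also differed in how much they varied between replicates. The biological coefficient of variation was 131.5% for Hamp and 39.2% for Tfrc, which puts them at percentiles 99.97 and 96.7 of the tested genes, and 6.52% for Fbxl5, at percentile 0.346.

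**Figure D1:**
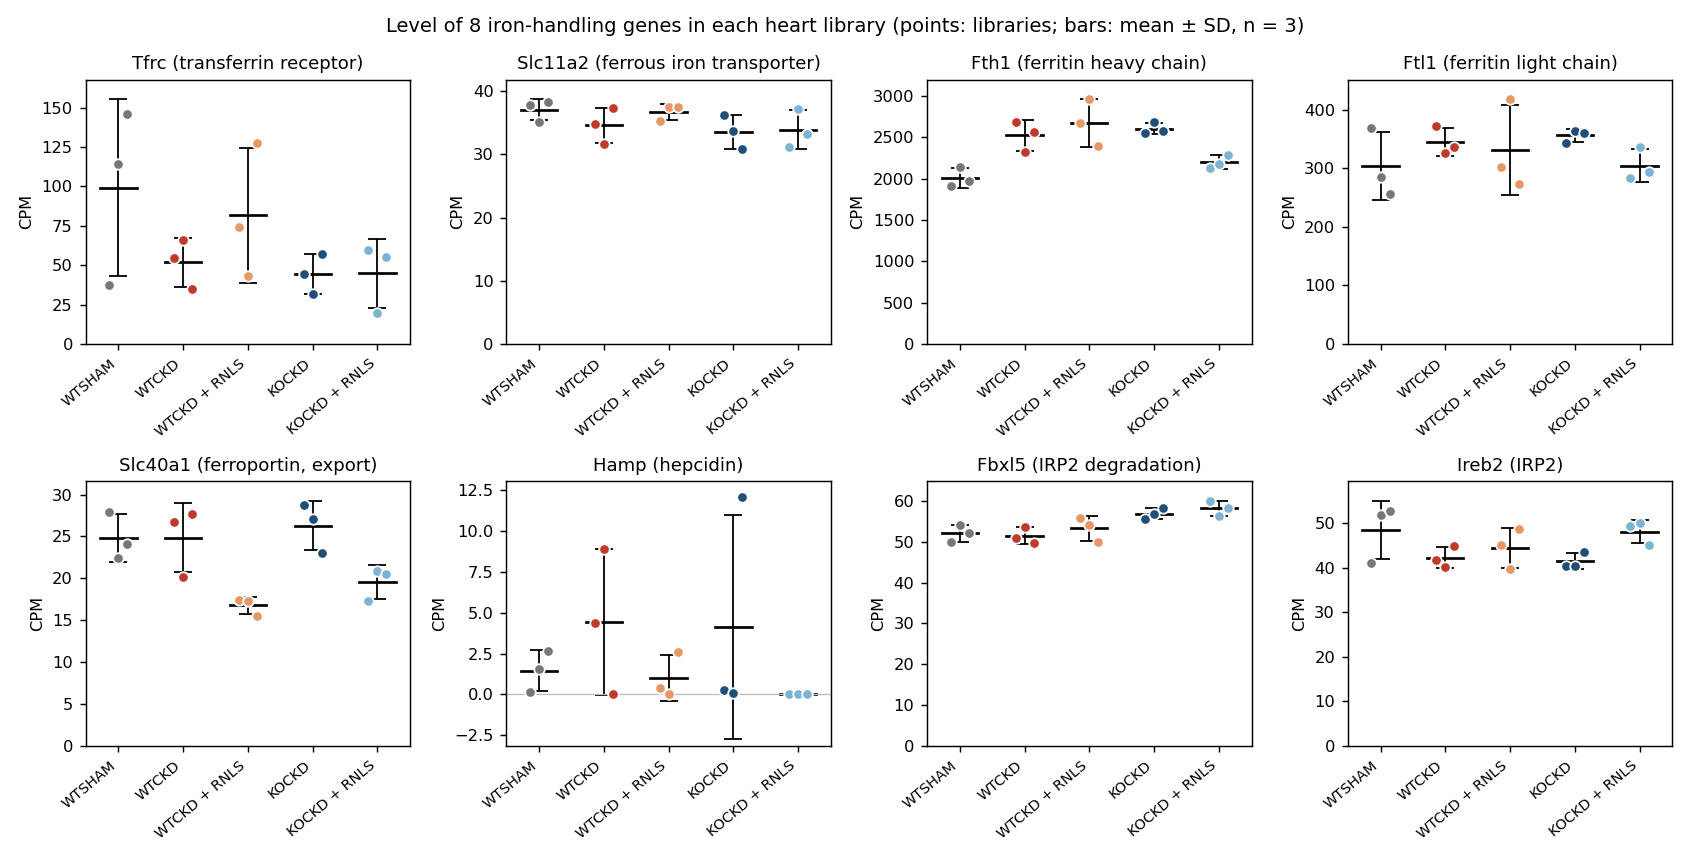
CPM of the 8 genes in each of the 15 libraries (points), with the mean and SD of each group of 3 (lines and bars); each panel has its own axis. Slc40a1 sat between 15.5 and 20.8 CPM in the 6 libraries with RNLS virus, Fth1 was lowest in WTSHAM, and Hamp and Tfrc spread widely within groups.

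Tested for any difference among the 5 groups with edgeR's quasi-likelihood F test, 2 of the 8 members passed at a Benjamini-Hochberg adjusted p under 0.05, where 22.2% of all tested genes did. These were Fth1, with an adjusted p of 0.00805, and Slc40a1, with an adjusted p of 0.0114 (edgeR). Both stayed under the threshold in each alternative run, at 2.11e-05 to 0.0334 for Fth1 and 0.00033 to 0.0336 for Slc40a1. In edgeR's test the other 6 had adjusted p between 0.155 for Tfrc and 0.529 for Slc11a2.

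Slc40a1, which encodes ferroportin, the only known iron exporter of animal cells, was the member that moved with the RNLS virus. It stood at 27.9, 22.4 and 24.1 CPM in the WTSHAM libraries and at 26.7, 20.1 and 27.6 CPM in WTCKD. The WTCKD + RNLS libraries held 17.4, 17.3 and 15.5 CPM. The KOCKD libraries held 28.8, 27 and 23.0 CPM, and KOCKD + RNLS 17.2, 20.8 and 20.5 CPM. In both genotypes all libraries with the virus were thus below all libraries with the empty vector. Such a separation downwards was seen in 10.8% of tested genes in wild type, in 20% in knockout, and in 3.59% in both. No member separated upwards in wild type, where 10.4% of genes did. The order of group means was KOCKD, WTSHAM, WTCKD, KOCKD + RNLS and WTCKD + RNLS, and neighbours in that order overlapped in their single libraries.

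The fall of Slc40a1 passed the test in both genotypes. In wild type it fell by 32.6% (log2 fold change -0.57 ± 0.14 SE, 95% interval -0.86 to -0.28, edgeR adjusted p = 0.0266), where 4.47% of tested genes were called, 2.19% upwards and 2.28% downwards. In knockout it fell by 25.7% (log2 fold change -0.43 ± 0.14 SE, interval -0.72 to -0.14, adjusted p = 0.0418), where 16.1% were called, 9.05% upwards and 7.04% downwards. No other member was called in either. These comparisons share no library, and 0.837% of tested genes fell at an adjusted p under 0.05 in both. Knockout minus wild type, the response to the virus differed by 0.14 on the log2 scale, with an interval of -0.27 to 0.55 (adjusted p = 0.752). The wild-type call was lost, at adjusted p of 0.0651 to 0.102, without WTCKD replicate 1 or 3 or WTCKD + RNLS replicate 1 or 3, and with only the 6 libraries compared (0.0660). The knockout call was lost, at 0.0512 to 0.155, without WTSHAM replicate 3, WTCKD replicate 1, KOCKD replicate 1 or 2 or any 1 of the KOCKD + RNLS libraries, and without the filter on low counts (0.0514).

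Ferroportin is expressed by cardiomyocytes and, at high level, by macrophages, and in bulk tissue fewer cells of a type and less RNA per cell cannot be told apart. Of 13 macrophage markers none passed edgeR's test in wild type with the virus, where 12 log2 fold changes were below 0 and 5 had an unadjusted p under 0.05, and 1 fell in knockout. Their summed level was 300 to 407 CPM in WTCKD and 280 to 314 CPM in WTCKD + RNLS, and 247 to 306 CPM in KOCKD and 219 to 297 CPM in KOCKD + RNLS. Of 7 endothelial markers 4 fell in wild type and 1 in knockout, with sums of 1313 to 1499 CPM in WTCKD against 968 to 1051 CPM with the virus, and 1198 to 1400 CPM in KOCKD against 1116 to 1134 CPM. Of 8 fibroblast markers 3 fell in each genotype, with sums of 1224 to 1839 CPM in WTCKD against 892 to 1086 CPM, and 1062 to 1400 CPM in KOCKD against 856 to 994 CPM. Of 8 cardiomyocyte markers none passed in wild type, where 7 log2 fold changes were above 0. In knockout 2 rose, while 6 of the 8 log2 fold changes were below 0. Their sums were 101563 to 115593 CPM in WTCKD against 117758 to 128053 CPM, and 101941 to 107734 CPM in KOCKD against 112537 to 115823 CPM. Of all tested genes 4.47% were called in wild type and 16.1% in knockout. None of these markers was at 0 in any library. In WTSHAM the macrophage sum was 465 to 534 CPM. The part of these cell types in the Slc40a1 values was not tested.

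Between CKD and sham no difference of Slc40a1 was found. The mean was 24.8 ± 2.83 CPM in WTSHAM and 24.8 ± 4.11 CPM in WTCKD (SD, n = 3), and the log2 fold change of 0.0023 had an interval of -0.28 to 0.29. KOCKD stood at 26.3 ± 2.94 CPM, 0.080 above WTCKD on the log2 scale with an interval of -0.20 to 0.36. Of the other export genes, Cp and Heph encode ferroxidases that oxidise the exported iron, and App encodes a protein that binds ferroportin. In WTCKD + RNLS against WTCKD the log2 fold changes were -0.27, -0.64 and -0.25, none of which passed the test. From KOCKD to KOCKD + RNLS the means rose from 148 ± 30.4 to 161 ± 17.4 CPM for Cp and from 236 ± 13.1 to 249 ± 6.69 CPM for App. For Heph they fell from 3.45 ± 1.29 to 2.35 ± 0.254 CPM, and none of these passed either.

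Fth1, the ferritin heavy chain that oxidises iron for storage, was the member that differed between CKD and sham. It stood at 1910, 2137 and 1976 CPM in WTSHAM and at 2685, 2320 and 2560 CPM in WTCKD. The WTCKD + RNLS libraries held 2666, 2957 and 2388 CPM, the KOCKD libraries 2553, 2680 and 2578 CPM, and the KOCKD + RNLS libraries 2128, 2170 and 2290 CPM. All 3 WTCKD libraries were above all 3 WTSHAM libraries, as in 10.3% of tested genes, and no member separated downwards, where 12.2% did. All 3 KOCKD + RNLS libraries were below all of KOCKD, as in 20% of tested genes. KOCKD + RNLS overlapped WTSHAM, and the other 3 groups overlapped each other.

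Fth1 was 25.6% higher in WTCKD than in WTSHAM (log2 fold change 0.33 ± 0.082 SE, interval 0.15 to 0.50, edgeR adjusted p = 0.0474). It was the only member called in this comparison, in which 2.3% of tested genes were called, 0.599% upwards and 1.7% downwards. The size was stable, between 0.29 and 0.38 on the log2 scale, while the call was not. It was kept without WTCKD + RNLS replicate 2 or 3, under DESeq2 and with the atrial markers as a covariate, and it was lost at adjusted p of 0.0575 to 0.202 when any other single library was left out. It was also lost with no filter (0.0636), with RLE scaling (0.0517) and with only the 6 libraries compared (0.107). Macrophage markers moved with this comparison too. All 13 log2 fold changes were below 0, with a median of -0.43 against -0.0053 over all tested genes. Of the 13, 1 passed edgeR's adjusted threshold and 8 had an unadjusted p under 0.05. Their summed level was 465 to 534 CPM in WTSHAM and 300 to 407 CPM in WTCKD. The part of macrophages in the Fth1 value was not tested.

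With the virus Fth1 fell short of the threshold in both genotypes. In knockout the log2 fold change was -0.25 ± 0.082 SE (interval -0.42 to -0.071, edgeR adjusted p = 0.0526), with means of 2604 ± 67.5 CPM in KOCKD and 2196 ± 83.7 CPM in KOCKD + RNLS (SD, n = 3). It passed under DESeq2, with only the 6 libraries compared, with the atrial covariate, and without WTSHAM replicate 1, WTCKD + RNLS replicate 2 or WTCKD + RNLS replicate 3, the lowest of these adjusted p being 0.00986. In wild type the log2 fold change was 0.082, with an interval of -0.092 to 0.26. Knockout minus wild type, the Fth1 response to the virus differed by -0.33 on the log2 scale (interval -0.57 to -0.082), with an unadjusted p of 0.0123 and an adjusted p of 0.184 in edgeR. No gene passed this interaction test after adjustment, 0% of those tested, and 17.6% had an unadjusted p under 0.05.

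Ftl1, the ferritin light chain that helps the mineral core to form, did not pass edgeR's test with all 15 libraries in any comparison. Its levels were 369, 286 and 256 CPM in WTSHAM, 372, 326 and 337 CPM in WTCKD, and 302, 418 and 272 CPM in WTCKD + RNLS. In KOCKD they were 344, 363 and 361 CPM and in KOCKD + RNLS 283, 336 and 293 CPM, without overlap, as in 20% of tested genes. The log2 fold change in knockout was -0.23 ± 0.14 SE with an interval of -0.53 to 0.078 (edgeR adjusted p = 0.299), and it passed with only the 6 libraries compared (0.0461). CKD against sham gave 0.18 with an interval of -0.12 to 0.49. WTSHAM replicate 1 and WTCKD + RNLS replicate 2 stood apart from the other libraries of their groups. Reads of Ftl1 can be shared with near-identical copies: the 27 bases of its element also occurred in Gm10116, which had no row in the table, and Ftl1-ps2 had at most 1 count in any library. The exons of Ftl1 also share 109 bases with AC151602.1 on the same strand in the reference.

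Around the ferritin chains, the list for storage and delivery held 7 tested genes. In KOCKD + RNLS against KOCKD all 7 log2 fold changes were below 0, with a median of -0.23 against -0.0094 over all tested genes. Of the 7, 1 passed the test, where 16.1% of all tested genes did. This was Glrx3, a cytosolic glutaredoxin that carries iron-sulfur clusters, which fell by 18.9% (log2 fold change -0.30, edgeR adjusted p = 0.0239), a call lost without KOCKD replicate 2 or 3 or any 1 of the KOCKD + RNLS libraries (0.0667 to 0.112). In WTCKD + RNLS against WTCKD 6 of the 7 were above 0, with a median of 0.082, and none passed. Ncoa4, the receptor that sends ferritin to the lysosome, had 43.7 ± 7.43 CPM in KOCKD and 37.3 ± 0.746 CPM in KOCKD + RNLS.

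**Figure D2:**
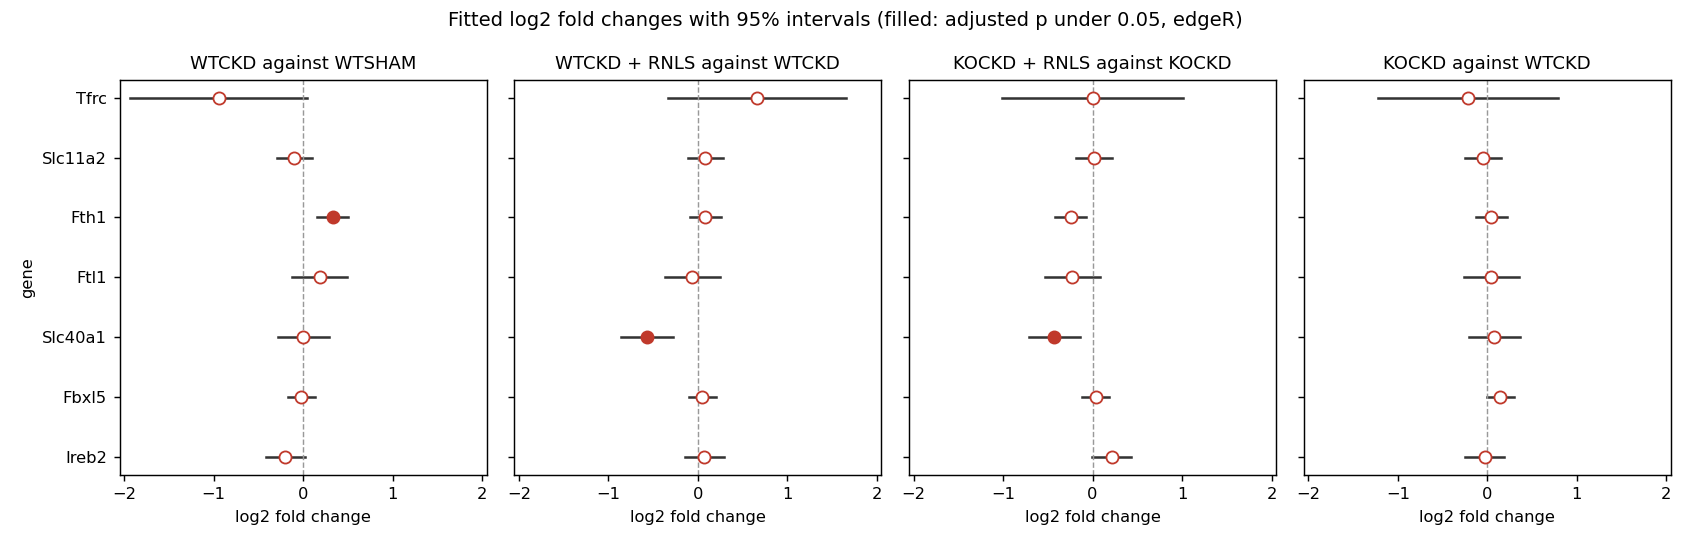
Log2 fold changes with 95% intervals for 7 of the 8 genes in 4 comparisons (Hamp is left out because its intervals run off the axis). Filled points passed an adjusted p under 0.05: Fth1 at 0.33 in WTCKD against WTSHAM, and Slc40a1 at -0.57 and -0.43 with the virus.

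Tfrc, the transferrin receptor, varied more between replicates than Slc11a2, the other uptake gene among the 8. WTSHAM held 37.3, 114 and 146 CPM and WTCKD 54.6, 65.7 and 35.1 CPM. WTCKD + RNLS held 74.0, 43.2 and 128 CPM, KOCKD 44.7, 32.0 and 57.2 CPM, and KOCKD + RNLS 59.4, 19.8 and 55.5 CPM. The highest libraries were WTSHAM replicate 3, WTCKD + RNLS replicate 3 and WTSHAM replicate 2, and the ranges of all groups overlapped. The log2 fold change of WTCKD against WTSHAM was -0.94 ± 0.47 SE, with an interval of -1.93 to 0.049 and an edgeR adjusted p of 0.310. It was -1.33 without WTSHAM replicate 1 (adjusted p = 0.0935) and -0.56 without WTSHAM replicate 3 (0.665). The virus gave 0.66 in wild type (interval -0.33 to 1.65) and 0.0035 in knockout (interval -1.01 to 1.02).

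Immature red cells also express Tfrc, and the summed level of 10 erythroid markers differed between libraries. It was 68.7 to 627 CPM in WTSHAM, 38.2 to 107 CPM in WTCKD, 218 to 531 CPM in WTCKD + RNLS, 51.4 to 376 CPM in KOCKD and 73.9 to 293 CPM in KOCKD + RNLS. Of the 6 erythroid markers tested, none passed edgeR's adjusted threshold for CKD against sham, where 2.3% of tested genes did. All 6 were lower there, each with an unadjusted p under 0.05. With the virus in wild type all 6 were higher, again each with an unadjusted p under 0.05. Among them 1, Hbb-bs, passed the adjusted threshold (log2 fold change 2.72, edgeR adjusted p = 0.0494), where 4.47% of tested genes did. Both comparisons use the same WTCKD libraries. In knockout 3 were higher and 3 lower with the virus, and none passed. Within groups the library with the highest erythroid sum had the lowest Tfrc in WTSHAM (627 and 37.3 CPM) and the highest Tfrc in WTCKD (107 and 65.7 CPM) and KOCKD (376 and 57.2 CPM). That library had the middle Tfrc in WTCKD + RNLS (531 and 74.0 CPM) and KOCKD + RNLS (293 and 55.5 CPM). Of the list, Alas2 had 8 to 305 counts and was at 0 in no library, while Slc4a1 was at 0 in 3, Klf1 in 4, Ahsp in 10 and Epb42 in 12 libraries. The part of red cells in the Tfrc values was not tested.

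Slc11a2, which encodes the divalent metal transporter DMT1, was steady. Its levels lay between 30.8 and 38.2 CPM in all 15 libraries, and the group means between 33.5 and 37.0 CPM. The log2 fold changes were -0.097 for CKD against sham (interval -0.29 to 0.099), 0.086 with the virus in wild type (interval -0.11 to 0.28) and 0.014 in knockout (interval -0.18 to 0.21). Its exons share 402 bases with Gm5475 on the other strand in the reference, and whether the counting used strand is not given in the sources used here.

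Among the 12 tested uptake genes, 1 fell in WTCKD against WTSHAM and the same gene rose with the virus in wild type. Of all tested genes 2.3% and 4.47% were called in these comparisons. Slc39a14, which encodes the ZIP14 transporter of iron not bound to transferrin, had 99.3 ± 9.63 CPM in WTSHAM, 71.7 ± 4.36 CPM in WTCKD and 99.4 ± 6.94 CPM in WTCKD + RNLS (SD, n = 3). It fell by 27.8% with CKD (log2 fold change -0.47, edgeR adjusted p = 0.0271) and rose by 38.6% with the virus (log2 fold change 0.47, adjusted p = 0.0189). Both comparisons use the same WTCKD libraries, so they are not independent. The CKD call was lost without WTSHAM replicate 1 or 2, without any 1 of the WTCKD libraries (0.0635 to 0.0995) and with only the libraries compared (0.0578), and the virus call without WTCKD replicate 2 or 3 or WTCKD + RNLS replicate 1 or 3 (0.0511 to 0.0799). The knockout groups held 68.0 ± 7.06 and 74.1 ± 9.50 CPM. Steap4, a ferric reductase, fell by 32.3% with the virus in wild type (log2 fold change -0.56, adjusted p = 0.0345), from 63.3 ± 6.43 to 42.8 ± 8.66 CPM, a call lost without any 1 of the WTCKD libraries or WTCKD + RNLS replicate 2 or 3 (0.0575 to 0.0976) and with only the libraries compared (0.0644). In knockout none of the 12 passed, with or without adjustment.

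Hamp, the gene of hepcidin, was near or at 0 in most libraries and high in a few. Its counts were 2, 21 and 36 in WTSHAM, 52, 97 and 0 in WTCKD, 5, 0 and 34 in WTCKD + RNLS, 3, 1 and 150 in KOCKD and 0 in all 3 KOCKD + RNLS libraries. On the CPM scale these were at most 2.65 in WTSHAM, 8.91 in WTCKD, 2.60 in WTCKD + RNLS and 12.1 in KOCKD. The KOCKD + RNLS libraries at 0 were listed below the 3 of KOCKD, as in 20% of tested genes, but 2 of those 3 held 3 counts and 1 count, no more than a count of 0 allows. The other groups overlapped, and each had both a library with 5 or fewer counts and a library with over 30. A count of 0 allows up to 3 counts, or 0.244 to 0.281 CPM in the KOCKD + RNLS libraries, which covers counting error only.

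No comparison of Hamp passed edgeR's test. The log2 fold change was 1.56 for CKD against sham (interval -1.38 to 4.50, edgeR adjusted p = 0.609) and -2.06 with the virus in wild type (interval -5.15 to 1.04, adjusted p = 0.471). In knockout the pooled level of 4.45 CPM in KOCKD was at least 52.1-fold higher than the limit of 3 counts over the KOCKD + RNLS group (0.0855 CPM), with an adjusted p of 0.0712 in edgeR. Of the 154 counts in KOCKD, 97.4% were in replicate 3, and the other 2 libraries held 4 counts together. Without replicate 3 the adjusted p was 0.554, whereas it passed with no filter on low counts (0.0433) and under DESeq2 (0.0135). The related gene Hamp2 had at most 4 counts in any library.

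Hamp was high in the libraries that were high in atrial markers. The 6 libraries with the most Hamp were the 6 with the highest summed level of 8 atrial markers, in the same order. They were KOCKD replicate 3 (12.1 CPM Hamp, atrial sum 2793 CPM), WTCKD replicate 2 (8.91 and 2594 CPM), WTCKD replicate 1 (4.40 and 1401 CPM), WTSHAM replicate 3 (2.65 and 1317 CPM), WTCKD + RNLS replicate 3 (2.60 and 542 CPM) and WTSHAM replicate 2 (1.58 and 521 CPM). The other 9 libraries had atrial sums of 108 to 488 CPM and at most 0.417 CPM of Hamp. The atrial sum differed between groups, at 158 to 317 CPM in KOCKD + RNLS against 144 to 2793 CPM in KOCKD. With the virus in knockout 3 of 6 tested atrial markers fell, where 7.04% of all tested genes did. Of the defining markers, Sln was at 0 in 1 library and Bmp10 in 7. Nppa, with the highest mean of the list (317 CPM), had at least 948 counts in every library. Myl7 went down to 4 counts and Myl4 to 16, so the sum did not fall as far as these markers did. With the atrial sum as a covariate, an alternative chosen after the data were seen, the log2 fold change of Hamp was -0.39 for CKD against sham and 1.62 with the virus in wild type, opposite in sign to the values above. In knockout, where every KOCKD + RNLS library was at 0, it stayed negative with this covariate and did not pass. How much of each heart was atrium is not given in the sources used here.

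**Figure D3:**
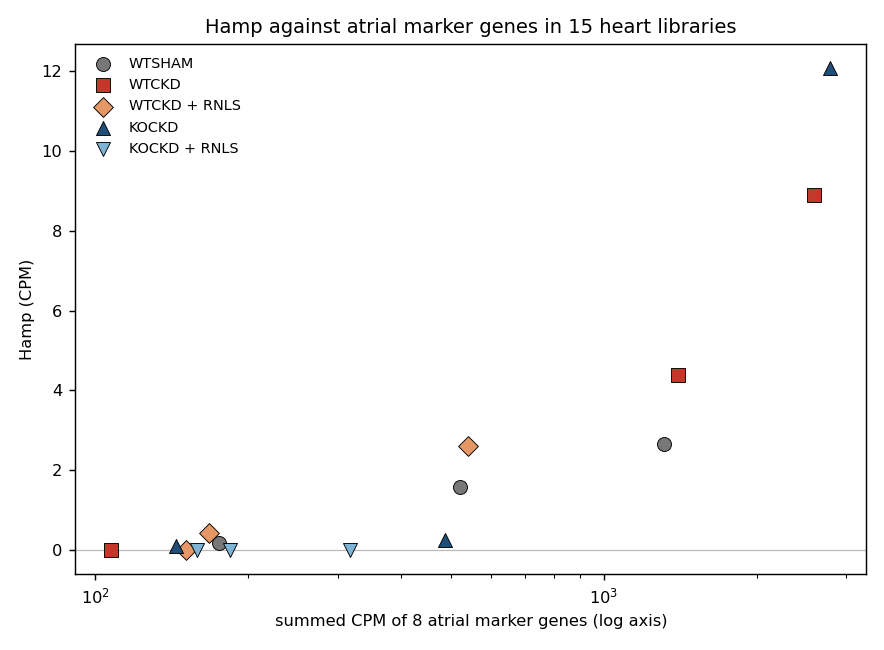
Hamp in CPM against the summed CPM of 8 atrial marker genes (log axis) in 15 libraries, with a symbol for each group. Libraries with an atrial sum of 521 CPM or more hold 1.58 to 12.1 CPM of Hamp, and the 9 others hold at most 0.417 CPM.

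In the liver hepcidin is driven by receptors for bone morphogenetic proteins (BMP). Of 13 tested genes of the hepcidin list, 1 fell with CKD, 1 rose with the virus in wild type, and 3 rose and 1 fell with the virus in knockout. Of all tested genes 2.3%, 4.47% and 16.1% were called in these comparisons. Bmpr1a, a type I receptor for these proteins, fell by 22.5% with CKD (log2 fold change -0.37, edgeR adjusted p = 0.0220), from 109 ± 5.31 to 84.6 ± 5.08 CPM. The comparison with the virus in wild type uses the same WTCKD libraries, so it is not independent of this fall. There Bmpr1a rose to 107 ± 9.86 CPM (log2 fold change 0.34, edgeR adjusted p = 0.0218). In knockout, in hearts that share no library with these, Bmpr1a rose with the virus from 89.5 ± 2.18 to 109.9 ± 4.76 CPM (0.30, adjusted p = 0.0205). Bmpr2 and Acvr2a, its type II partners, rose in knockout by 0.58 and 0.32 on the log2 scale (adjusted p = 0.00229 and 0.0264). Hjv, the co-receptor haemojuvelin that is made in muscle and liver, fell there by 26.5% (log2 fold change -0.44, adjusted p = 0.0186), from 333 ± 19.5 to 245 ± 16.9 CPM. The Bmpr1a calls were lost, at edgeR adjusted p of 0.0508 to 0.0962, without WTSHAM replicate 3 or WTCKD replicate 2 or 3 for CKD, without WTCKD replicate 2 or 3 or WTCKD + RNLS replicate 1 or 3 for the virus in wild type, and without KOCKD replicate 1 or 3 or KOCKD + RNLS replicate 1 or 2 in knockout. With only the libraries compared the CKD and wild-type calls were lost too (0.0762 and 0.0940). Those of Acvr2a and Hjv were lost without KOCKD replicate 2 or 3 or KOCKD + RNLS replicate 2, and without KOCKD + RNLS replicate 1 for Acvr2a and replicate 3 for Hjv (0.0549 to 0.121). Bmpr2 kept its call without any 1 library. Of 7 known BMP targets none passed the test in any of these comparisons, and their summed level lay between 133 and 169 CPM in all 15 libraries.

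Fbxl5 and Ireb2, the 2 sensing genes of the set, varied little. FBXL5 is the iron-binding subunit of a ubiquitin ligase that degrades IRP2, the product of Ireb2. Fbxl5 lay between 49.7 and 59.9 CPM, with group means from 51.5 in WTCKD to 58.2 in KOCKD + RNLS. Its 3 KOCKD libraries (55.5, 56.8 and 58.3 CPM) were above the 3 of WTCKD (51.0, 53.7 and 49.7 CPM), as in 9.84% of tested genes, while no member separated downwards, where 9.43% did. The log2 fold change was 0.14 with an interval of -0.0067 to 0.30 (edgeR adjusted p = 0.500). Ireb2 had 41.0, 51.8 and 52.7 CPM in WTSHAM and 41.8, 40.1 and 44.9 CPM in WTCKD. It had 40.3, 40.4 and 43.5 CPM in KOCKD and 49.4, 50.0 and 45.1 CPM in KOCKD + RNLS, a separation upwards seen in 20.6% of tested genes. That log2 fold change was 0.22 ± 0.10 SE, with an interval of -0.0010 to 0.43 and an adjusted p of 0.160 in edgeR. The exons of Fbxl5 share 99 bases with Bst1 on the other strand.

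Of the 10 tested genes of the sensing list none passed edgeR's adjusted threshold with CKD or with the virus in wild type. The share of all tested genes that passed was 2.3% and 4.47%. Without adjustment 2 and 3 of the 10 had a p under 0.05 in edgeR's test. How many of all tested genes did so was not counted. With the virus in knockout 1 rose and 3 fell, where 16.1% of all tested genes were called. Herc2, a ubiquitin ligase that acts on FBXL5 and NCOA4, rose by 59.7%, from 70.0 ± 1.91 to 112 ± 5.57 CPM (log2 fold change 0.68, edgeR adjusted p = 0.00217). Skp1 and Rbx1, which form the ligase together with FBXL5, fell by 19.6% and 24.7% (adjusted p = 0.0428 and 0.00928). Ciao2a, which takes part in loading the iron-sulfur cluster of IRP1, fell by 25.3% (adjusted p = 0.0260). Aco1, which encodes IRP1, had 54.2 ± 0.993 CPM in KOCKD and 54.6 ± 1.78 CPM in KOCKD + RNLS. Herc2 kept its call in each fit that left out 1 library, at adjusted p of at most 0.00980, and so did Rbx1, at most 0.0437. The Skp1 call was lost in 10 of 15 such fits, namely without WTSHAM replicate 3 or any 1 of the WTCKD, KOCKD or KOCKD + RNLS libraries (0.0554 to 0.158), and with no filter (0.0606). The Ciao2a call was lost without KOCKD replicate 2 or 3 or any 1 of the KOCKD + RNLS libraries (0.0567 to 0.117).

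The mitochondria use most of the iron of a cardiomyocyte, for heme and iron-sulfur clusters. All 23 genes of that list were tested, and in wild type none passed edgeR's adjusted threshold with CKD or with the virus. The share of all tested genes that passed was 2.3% and 4.47%. Without adjustment 4 and 5 of the 23 had a p under 0.05 in edgeR's test. How many of all tested genes did so was not counted. With the virus in knockout 3 fell and 1 rose, 18 of 23 log2 fold changes were below 0 and the median was -0.12, against -0.0094 over all tested genes. In that comparison 16.1% of all tested genes were called. Lyrm4, the partner of the cysteine desulfurase, fell by 31.3% (log2 fold change -0.54, edgeR adjusted p = 0.0244). Fdx1, a ferredoxin, and Cisd1, an iron-sulfur protein of the outer membrane, fell by 24.0% and 22.6% (adjusted p = 0.0150 and 0.0340). Slc25a37, which encodes the mitochondrial iron importer mitoferrin 1, rose by 42.0% (log2 fold change 0.51, adjusted p = 0.0249), from 15 to 21.2 CPM. Each of these 4 calls was lost in some fits that left out 1 KOCKD or KOCKD + RNLS library, at edgeR adjusted p of up to 0.125. For Lyrm4 any 1 of the 6 libraries ended it, and for Cisd1 KOCKD replicate 2 or 3 or any 1 of KOCKD + RNLS did. For Fdx1 it was KOCKD replicate 2 or 3 or KOCKD + RNLS replicate 1 or 2, and for Slc25a37 KOCKD replicate 1 or KOCKD + RNLS replicate 1 or 2.

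Of 11 tested genes for heme iron none passed edgeR's adjusted threshold in any of the 3 comparisons. The share of all tested genes that passed was 2.3%, 4.47% and 16.1%. Without adjustment 1, 1 and 5 of the 11 had a p under 0.05 in edgeR's test. How many of all tested genes did so was not counted. Of the 5 other mRNAs known to carry an iron-responsive element, Epas1 passed once, in the knockout comparison, where 16.1% of all tested genes did. It encodes the hypoxia-inducible factor HIF-2α and rose in knockout with the virus by 40.8%, from 334 ± 28 to 469.8 ± 5.13 CPM (log2 fold change 0.49, edgeR adjusted p = 0.00244). In wild type its means were 383 ± 13.9 and 468 ± 42.7 CPM with an adjusted p of 0.0563. Alas2, the erythroid enzyme of heme synthesis, had 2.08 ± 1.56 CPM in WTCKD against 15.2 ± 11.4 CPM in WTSHAM, and its adjusted p of 0.0863 did not pass.

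Counted over the 85 tested iron genes, 1 rose and 2 fell with CKD, 2 rose and 2 fell with the virus in wild type, and 6 rose and 9 fell with the virus in knockout. Against these 3, 4 and 15 calls stand 2.3%, 4.47% and 16.1% of all tested genes, so the share called in the iron lists was near that of the table as a whole. The median log2 fold changes of the 85 were -0.0023, 0.082 and -0.070, against -0.0053, 0.012 and -0.0094 over all tested genes. Clock genes changed with the virus as well: of 14, 8 rose and 3 fell in wild type and 8 rose and 2 fell in knockout. Time of day at death is not given in the sources used here, and its part in the iron genes was not tested.

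**Figure D4:**
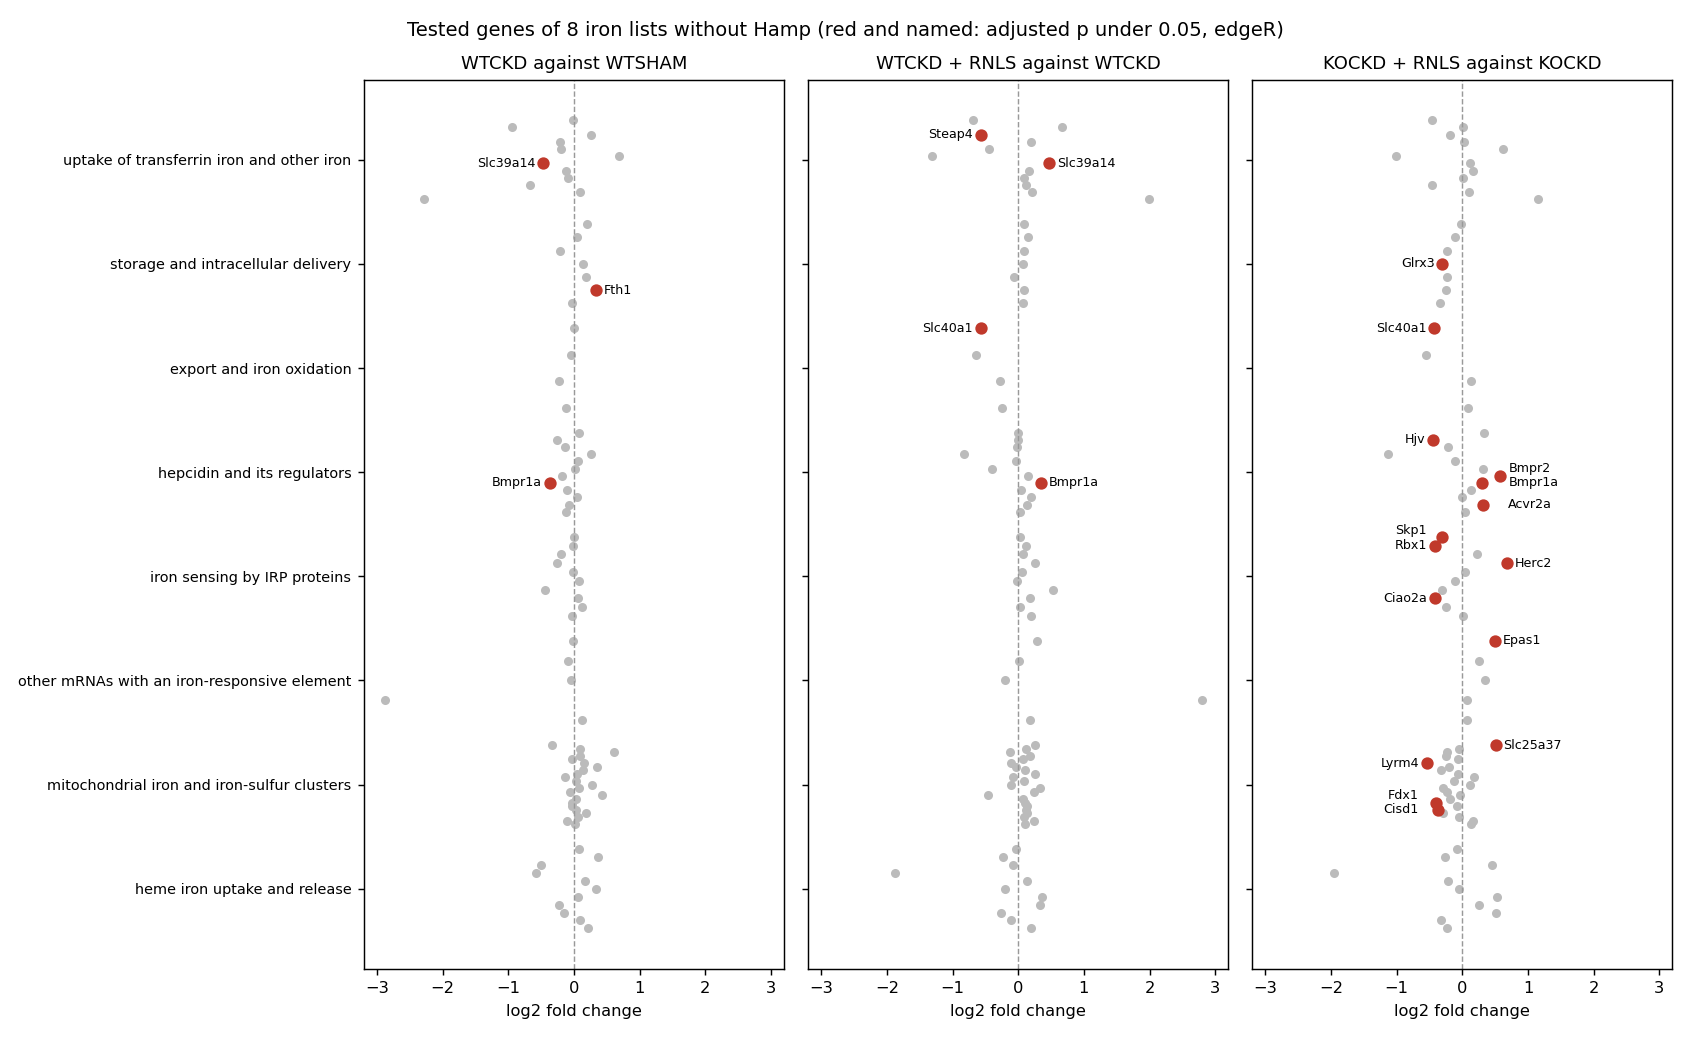
Log2 fold changes of the tested genes of 8 iron lists, without Hamp, in 3 comparisons; each point is a gene, and red, named points passed an adjusted p under 0.05. Most genes sit near 0, and calls number 3, 4 and 15 from the left panel to the right.

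Knockout and wild-type hearts with CKD and empty vector did not differ in any member at the threshold. None of the 8 and none of all tested genes, 0%, passed in edgeR's test of KOCKD against WTCKD, where 10.1% of the tested genes and none of the 8 had an unadjusted p under 0.05. DESeq2 called 9 genes, none of them a member. By the study's own rule, a minimum fold change at an unadjusted p under 0.05, no member passed here either, where 5.62% of tested genes did. That rule called Fth1 with CKD (11.3% of tested genes), Slc40a1 with the virus in wild type (14.4%), Slc40a1 and Hamp with the virus in knockout (22.3%) and Fth1 in the interaction (15.2%). The intervals of the log2 fold changes ran from -0.13 to 0.22 for Fth1, from -0.20 to 0.36 for Slc40a1, from -0.24 to 0.15 for Slc11a2 and from -1.22 to 0.80 for Tfrc. The WTCKD libraries are shared with the comparisons of CKD against sham and of the virus in wild type.

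Some genes tracked single members across the 15 libraries. Among tested genes with a mean log2 CPM over 3, the 3 with the highest Pearson correlation of log2 CPM with each member were taken, and the most negative one. Libraries of 1 group share their treatment, so these are descriptions over 15 libraries with no test. They are also the extremes picked from many genes, which by itself favours high correlations. For Hamp the most alike were Myl4 (r = 0.956, Spearman's rho = 0.956), Myl7 (r = 0.951) and Stard10 (r = 0.904), all on the list of atrial markers. Myl4 and Myl7 encode the atrial myosin light chains. For Fth1 they were Cops6 (r = 0.932, rho = 0.925), Myl2, the ventricular myosin light chain (r = 0.917), and Ppp1ca (r = 0.913), and for Ftl1 Eif2s2 (r = 0.934, rho = 0.921), Nsfl1c (r = 0.925) and Cmc1 (r = 0.901).

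Slc40a1 was most like Cavin4, a caveolar protein of muscle (r = 0.898, rho = 0.889), Ptp4a1 (r = 0.893) and Mlycd, malonyl-CoA decarboxylase (r = 0.881). Tfrc was most like the calcium channel gene Cacna1g (r = 0.874, rho = 0.925), Gpr153 (r = 0.852) and Grk3 (r = 0.809). For Ireb2 the most alike were Zbtb33 (r = 0.922, rho = 0.929), 4932438A13Rik (r = 0.910) and Sec24c (r = 0.900). For Fbxl5 they were Vezt (r = 0.860, rho = 0.850), Slc50a1 (r = 0.842) and Glt8d1 (r = 0.824). Slc11a2 had the lowest such values, with Stk38 (r = 0.788, rho = 0.836), Selenot (r = 0.787) and Ppm1l (r = 0.784). The most negative were Mitf for Slc40a1 (r = -0.922), Mpdz for Fth1 (r = -0.914), Map1b for Ftl1 (r = -0.896), Mnat1 for Ireb2 (r = -0.894), Eif3b for Tfrc (r = -0.887), Prpf6 for Hamp (r = -0.856), Abcb9 for Fbxl5 (r = -0.809) and Slc50a1 for Slc11a2 (r = -0.771).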

How the data were processed

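Total RNA from hearts was made into stranded mRNA libraries and sequenced on Illumina instruments of either of 2 models, 3 mice in each of 5 groups. The authors trimmed reads with Trimmomatic, aligned them with hisat2 and counted them per gene with htseq-count; the deposited counts are raw. The labels and methods name cufflinks for the FPKM. The deposited FPKM equalled the count divided by a fixed length per gene and the library total, to within a relative 8.39e-07. They were used here for levels between genes only. The build is mm9 in the methods and GRCm39 in the submitters' processing notes, and the counting options are not given in the sources used here.

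Counts were filtered with filterByExpr (minimum count 10, total 15), scaled by TMM and fitted with edgeR 4.0.16's quasi-likelihood test (R 4.3.3) by group over all 15 libraries. Comparisons were CKD against sham, virus against vector in each genotype, knockout against wild type, the interaction, and any difference among groups. P-values were adjusted by Benjamini-Hochberg over all tested genes, and a call is an adjusted p under 0.05. For CKD against sham and for the virus, the share of all tested genes at an unadjusted p under 0.05 was not counted. Counts of listed genes at that level therefore have no background there. Alternatives were DESeq2 1.42.0, RLE scaling, no filter, only the compared libraries, the replicate number as a block, each library left out, and, chosen after seeing the data, the atrial sum as a covariate. The authors' rule, fold change over 1.25 at an unadjusted p under 0.05, was also applied. The code was tested on simulated data.

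The members and gene lists were chosen with earlier results of these data known. Besides the 8 members, the genes named were up to 4 per iron list and comparison with the largest change among those called, the defining markers of cell types, near copies of members, and the genes most like each member. Cp, Heph, App, Ncoa4, Aco1 and Alas2 were named after their values were seen. Group labels could not be checked against Rnls. The depth of 10480788 to 13424078 reads limits low genes such as Hamp, where the floor of 3 counts covers counting error only. Some single-gene values are not reported here.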

Additional observations from a re-analysis of the deposited data

How the results depend on the processing

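Of 1398 values for single genes under the alternatives, 1248 kept their direction and side of the threshold, 109 lost and 10 gained the call, and 31 changed sign. With 3 libraries a group, small changes and those of Tfrc and Hamp are poorly resolved. The cause of the differences below was not tested.

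Calls for CKD against sham, 1 member, 3 iron genes and 299 genes, became 0 members with no filter, RLE scaling, the replicate block or only the compared libraries, and with the last 0 iron genes and 99 genes. DESeq2 gave 555 genes, and the authors' rule 12 iron genes and 1470 genes. For the virus in wild type only the compared libraries gave 0 members and 380 genes, DESeq2 8 iron genes and 894 genes, and the rule 12 and 1874. For the virus in knockout the replicate block gave 0 members, only the compared libraries 3 members and 27 iron genes, DESeq2 3 members, and the atrial covariate and the rule 2 each. For knockout against wild type genes called were 5 with no filter, 4 with RLE, 1 with the block, 2 with the compared libraries, 9 with DESeq2, 3 with the atrial covariate and 732 by the rule, with 8 iron genes. For the interaction the rule called 1 member, 22 iron genes and 1981 genes, and DESeq2 2 iron genes and 210 genes. For any group difference DESeq2 called 31 iron genes.

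Signs turned for Hamp with the atrial covariate (-0.39 for CKD, 1.62 for the virus in wild type), for Slc11a2 in knockout with that covariate (-0.018) and for Tfrc in knockout with the block (-0.0016). The replicate numbers did not pair the samples, since same-numbered libraries correlated between -0.36 and 0.23 in their deviations. With the block the adjusted p was 0.0733 for Fth1 with CKD and 0.0553 for Slc40a1 in knockout.

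With 1 library left out, members called ranged over 0 to 1 for CKD, 0 to 1 for the virus in wild type, 0 to 2 in knockout and 2 to 3 for any group difference. Iron genes called ranged over 0 to 4, 1 to 7, 4 to 22 and 10 to 29, and all genes over 136 to 581, 209 to 795, 862 to 2771 and 1740 to 3727. They were 0 to 3 for knockout against wild type and 0 to 2 for the interaction. Log2 fold changes that changed sign ranged over -0.078 to 0.13 (Slc40a1) and -0.055 to 0.012 (Fbxl5) for CKD, and over -0.012 to 0.16 (Fth1) and -0.28 to 0.063 (Ftl1) for the virus in wild type. In knockout they were -0.25 to 0.37 (Tfrc) and -0.054 to 0.071 (Slc11a2). For knockout against wild type they were -0.015 to 0.090 (Fth1), -0.054 to 0.17 (Slc40a1), -4.54 to 0.93 (Hamp), -0.11 to 0.013 (Slc11a2) and -0.071 to 0.013 (Ireb2), and for the interaction -0.29 to 0.052 (Ftl1) and -0.064 to 0.020 (Fbxl5).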
